A study of Mus musculus with 194 samples.

Results

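The genes described here are Cd8a and Cd8b1, which encode the 2 chains of the CD8 coreceptor, Cd4, which encodes the other T-cell coreceptor, and the transcription factor genes Zbtb7b and Runx3. They are 5 of the 23420 genes of the expression table and were selected on measured values of these data, namely TPM that showed the coupling of both CD8 chains, lineages low in them, and the levels of Cd4, Zbtb7b and Runx3 in those lineages. The study grew single founder cells in an array of hydrodynamic traps, recorded which of the progeny were sisters and cousins, and sequenced each released cell by Smart-Seq2, a method that amplifies cDNA of full-length polyadenylated RNA. One cell type was primary CD8+ T-cells from C57BL/6J mice of mixed sex, purified with a magnetic CD8a T-cell isolation kit, activated for 30 h with plate-bound antibody to CD3 at 5 µg/mL and soluble antibody to CD28 at 2 µg/mL, then grown with IL2 at 100 U/mL and 2-mercaptoethanol. The other was L1210, an established lymphocytic leukemia cell line from a DBA mouse, which was grown without activation or IL2, and both media held serum at 10%. The labels name neither the mouse nor the culture of a cell. In comparisons of the cell types and with time, lineages descended from 1 founder were therefore the replicates. Those p values cover the spread between lineages and not between mice. Tests of differences among lineages instead set lineages against the spread of cells within them. There, a difference among lineages cannot be told apart from one among mice or cultures. Strain, activation and cytokine all differ between the cell types and cannot be told apart from the cell type.

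The CD8 coreceptor is carried on cytotoxic T-cells as a dimer of an alpha and a beta chain. It binds class I MHC molecules and brings the kinase Lck to the T-cell receptor, and the alpha chain carries the part that holds Lck. CD4 does the same for class II MHC molecules on helper T-cells. In the thymus Runx3 silences Cd4 and supports the CD8 program, whereas Thpok, the product of Zbtb7b, represses the CD8 genes and Runx3 in the helper lineage.

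In the GRCm38 build, which is the mm10 build of the expression table, Cd8b1 lies at chr6:71322788-71337494 and Cd8a at chr6:71373427-71379173, both on the plus strand and 35932 bases apart. Cd4 lies on the same chromosome at chr6:124864692-124888221 on the minus strand. Zbtb7b is at chr3:89377644-89394776 on the minus strand and Runx3 at chr4:135120652-135177990 on the plus strand. Start windows of 300 bases from RefSeq (GRCm38.p6, mostly upstream of a transcript start) were held for 3 of the 5 genes, as 5 windows. They were searched on both strands for TGTGGT and TGCGGT, the core letters that Runx proteins recognize, which cannot overlap in full because they differ at 1 base. Of all 32851 mouse windows of the same length, 16.8% held TGTGGT, 1.81% held it at least 2 times and 6.45% held TGCGGT. The window of Cd8a (chr6:71373177-71373476, plus strand) is shown because Cd8a is one of the chains described below, that of Runx3 (chr4:135120395-135120694, plus strand) and that of Zbtb7b (chr3:89387622-89387921, minus strand) because these genes differed between the cell types. Capitals mark the matches, which read TGTGGT in Zbtb7b and stand as the reverse complement in the other windows, ACCACA in Runx3. In Cd8a the capitals are ACCGCA, which reads as TGCGGT on the other strand.
Cd8a: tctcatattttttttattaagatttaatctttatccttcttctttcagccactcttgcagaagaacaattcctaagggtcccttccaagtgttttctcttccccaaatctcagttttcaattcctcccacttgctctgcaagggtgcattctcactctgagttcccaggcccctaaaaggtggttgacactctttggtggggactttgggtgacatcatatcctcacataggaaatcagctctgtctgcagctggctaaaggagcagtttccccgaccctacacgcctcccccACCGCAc
Runx3: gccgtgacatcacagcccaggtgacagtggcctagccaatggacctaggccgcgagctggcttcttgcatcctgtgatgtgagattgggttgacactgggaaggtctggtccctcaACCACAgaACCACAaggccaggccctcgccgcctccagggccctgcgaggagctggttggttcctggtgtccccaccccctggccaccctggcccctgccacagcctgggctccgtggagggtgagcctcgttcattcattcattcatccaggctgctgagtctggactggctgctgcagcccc
Zbtb7b: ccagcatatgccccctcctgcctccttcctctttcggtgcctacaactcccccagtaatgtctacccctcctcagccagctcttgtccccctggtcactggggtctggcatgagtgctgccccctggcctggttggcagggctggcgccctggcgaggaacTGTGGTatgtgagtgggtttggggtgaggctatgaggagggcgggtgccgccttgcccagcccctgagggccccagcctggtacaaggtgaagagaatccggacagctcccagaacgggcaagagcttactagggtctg
The Runx3 window held TGTGGT 2 times, both as the reverse complement, the Zbtb7b window 1 time, and the Cd8a window held TGCGGT 1 time. The second windows of Runx3 and Zbtb7b held neither. These are matches of letters in a window and were not tested for binding.

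Left out were 4 doublets and 5 other libraries with fewer than 1000 genes above 0 TPM among CD8+ T-cells, and 2 and 5 among L1210 cells. The 97 CD8+ T-cells that remained had between 2639 and 10905 genes above 0 TPM (median 6862), and the 81 L1210 cells between 1610 and 10454 (median 8402). The left-out libraries nearest to the limit had 714 and 801 genes. TPM, the abundance of transcripts scaled for their length and to a total of 1000000 in each library, keep no sequencing depth, so a gene listed at 0 TPM has no limit of detection here. The recorded relations gave 34 lineages of CD8+ T-cells, of which 16 had 4 cells, 4 had 3, 7 had 2 and 7 had 1 cell, and 26 lineages of L1210 cells. A lineage of 1 cell is a retained cell joined to no other by sister or cousin labels that name each other. Such cells counted as separate lineages and as unrelated in pairs, and whether they had separate founders was not tested. Lineages are numbered by their lowest cell number. Cd3e, a T-cell receptor subunit, was detected in every CD8+ T-cell (97 of 97, median 571 TPM) and in 0 of 81 L1210 cells, so that the cell type labels and this marker go together. Rn45s, a ribosomal precursor, made up 22.6% of the TPM in the median CD8+ T-cell and 21.9% in the median L1210 cell, and 79.3% in L1210_15.

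Both CD8 chains were abundant in nearly all CD8+ T-cells, and the beta chain transcript was the more abundant. Among the 97 CD8+ T-cells, 94 had Cd8a above 0 TPM, and the median was 364 and the maximum 924 TPM. Cd8b1 was above 0 TPM in 93 of 97 cells, with a median of 806 TPM and a maximum of 2128 TPM. Since TPM are scaled for transcript length, the levels of both genes can be set side by side. In 83 of the 93 cells with both transcripts Cd8b1 exceeded Cd8a, and the median ratio of Cd8b1 to Cd8a was 1.99 (quartiles 1.39 and 2.83).

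A single lineage lacked the CD8 transcripts. Lineage 83 had 4 cells, CD8_83 to CD8_86, and Cd8b1 was listed at 0 TPM in all of them. Its Cd8a was 1.87 TPM in CD8_83 and 0 in the other cells. By the rule used, under which a lineage lacks a gene when no cell exceeds 1 in ln(TPM + 1), which is 1.72 TPM, lineage 83 was the only 1 of 34 to lack Cd8b1, and 0 lineages lacked both chains because CD8_83 just passed the limit for Cd8a. All cells of the other 33 lineages, 93 in number, exceeded the limit in both chains. The 4 cells of lineage 83 had 5129, 4607, 7362 and 3392 genes above 0 TPM. CD8_85, with 0 TPM of both chains, thus had more detected genes than the median CD8+ T-cell. Because the lineage was one of the reasons for which these genes were chosen, its levels are given as a description with no test.

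**Figure D1:**
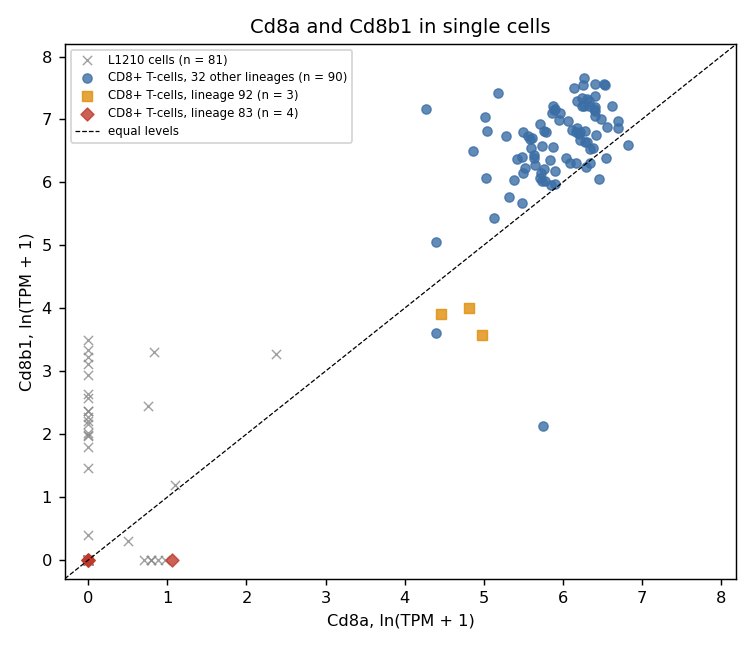
Level of Cd8a (x axis) and Cd8b1 (y axis), both as ln(TPM + 1), in each retained cell, with the dashed line at equal levels. The 4 cells of lineage 83 sit at or near the origin with most L1210 cells, the 3 cells of lineage 92 lie below the line, and 83 of the 93 CD8+ T-cells with both transcripts lie above it.

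Lineage 92 kept both chains at a low level, and more so the beta chain. Its cells CD8_92, CD8_93 and CD8_94 had 122.59, 144.87 and 85.65 TPM of Cd8a and 53.71, 34.77 and 48.64 TPM of Cd8b1. In each of them Cd8b1 was the lower transcript, with ratios to Cd8a of 0.438, 0.240 and 0.568. Lineage 92 was the only 1 of the 33 lineages with a ratio in which the median of Cd8b1 was below that of Cd8a. The next lowest ratio of medians was 1.09, the median over lineages 2.24 and the highest 7.60. Lineage 92 was singled out after these values were seen.

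In the other 32 lineages the median of Cd8a ranged from 80.3 to 711 TPM and that of Cd8b1 from 154 to 1912 TPM. Over their 90 cells the medians were 386 TPM for Cd8a and 848 TPM for Cd8b1. The next lowest Cd8b1 after lineage 92 was in lineage 69, of a single cell with 80.25 TPM of Cd8a and 154.31 TPM of Cd8b1. Only 2 of the 90 cells had less Cd8b1 than the highest cell of lineage 92, and 4 had less Cd8a than its highest cell, so the separation was in Cd8b1 more than in Cd8a.

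Low Cd8b1 also occurred in single cells whose relatives had a usual level. CD8_45 had 7.38 TPM of Cd8b1, where CD8_44, CD8_47 and CD8_48 of its lineage had 550.3, 787.13 and 591.32 TPM. CD8_7 had 35.91 TPM of Cd8b1 and 79.89 TPM of Cd8a, where CD8_5 and CD8_6 had 931.53 and 1351.01 TPM of Cd8b1 and 451.31 and 752.69 TPM of Cd8a. CD8_34 went the other way, with 70.2 TPM of Cd8a against 1292.21 TPM of Cd8b1, the highest ratio at 18.4. CD8_7 and CD8_34 had 2985 and 2639 genes above 0 TPM, the latter the fewest of all retained CD8+ T-cells, and CD8_45 had 5281. The part of detection in these values was not tested.

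**Figure D2:**
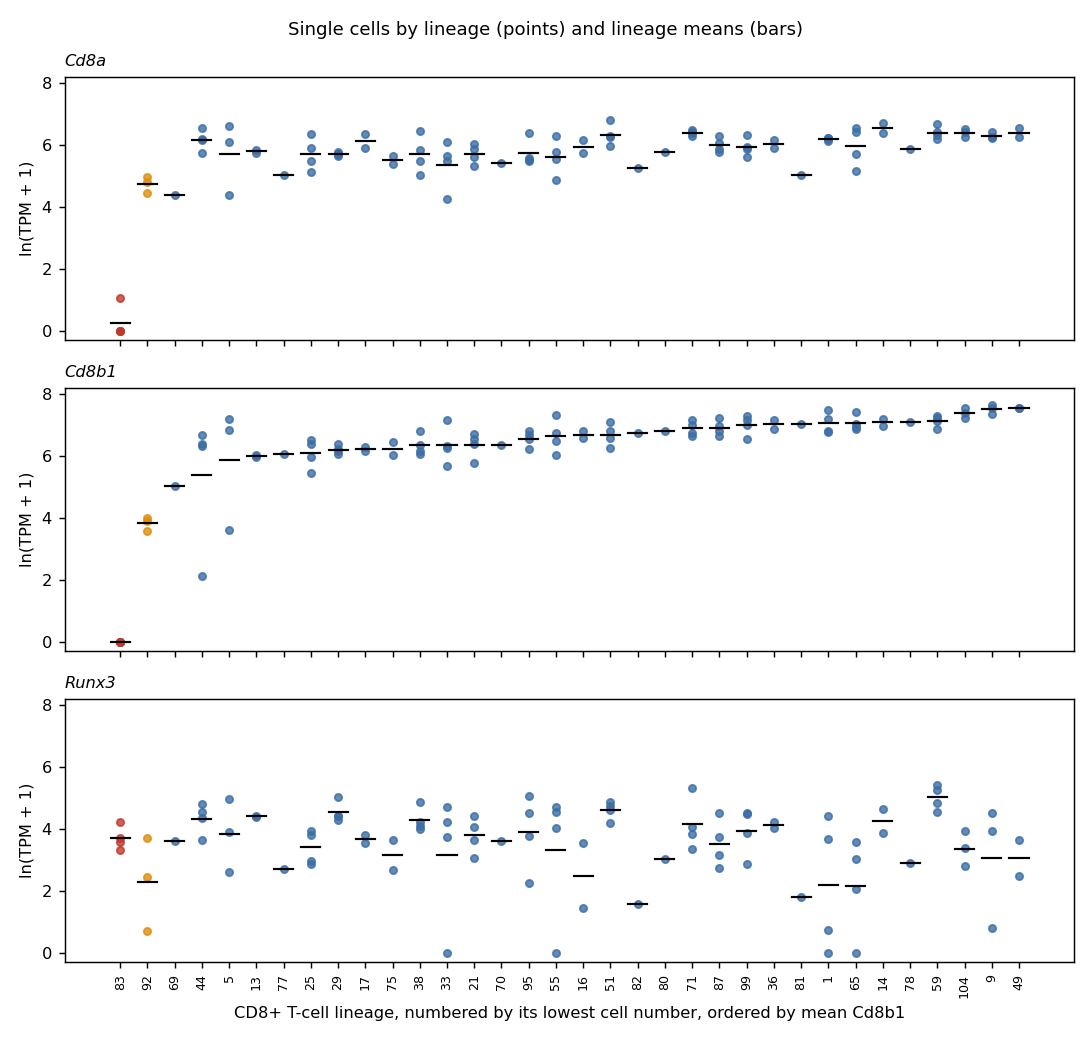
Cd8a, Cd8b1 and Runx3 as ln(TPM + 1) in each of the 97 CD8+ T-cells (points), by lineage (x axis, ordered by mean Cd8b1), with lineage means as bars and lineages 83 and 92 in red and orange. Lineage 83 stands apart in both CD8 chains and lineage 92 in Cd8b1, whereas their Runx3 points lie within the range of the other lineages.

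The coupling of both chains over lineages was strong by Pearson's r only with lineage 83 included, and changed less by rank. Over the means of ln(TPM + 1) of 34 lineages, Pearson's r of Cd8a with Cd8b1 was 0.908 and Spearman's rho 0.657. Without lineage 83 r was 0.657 and rho 0.625 (33 lineages), and without lineages 83 and 92 both were 0.589 (32 lineages). Leaving out the 2 lineages farthest from the median Cd8a, 69 and 83, gave r = 0.593. A relation of moderate size thus remained among lineages that all expressed both chains.

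From cell to cell within a lineage the chains were coupled less. Over 97 cells r was 0.873 and rho 0.570, and over the 90 cells outside lineages 83 and 92 they were 0.433 and 0.467. With each cell taken relative to the mean of its lineage, r was 0.305 and rho 0.068 (90 cells of 27 lineages with at least 2 cells). In L1210 cells r was 0.225 and rho 0.180 (81 cells). Each point takes both levels from 1 library, so they share its amplification and its total of TPM. The number of genes above 0 TPM had a rho of -0.15 with Cd8a and -0.27 with Cd8b1. These correlations are descriptions, since the genes were chosen for the coupling.

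The spread between lineages was of the same kind. In the 27 lineages of at least 2 cells, 88.6% of the variance of Cd8a and 83.7% of that of Cd8b1 lay between lineages. Without lineage 83 the shares were 33.3 and 46.7%, and without lineages 83 and 92 they were 18.9 and 22.3%. For Cd8a, the SD between lineages fell from 1.23 with all lineages to 0.213 without both, in units of ln(TPM + 1), while the SD within lineages was 0.442 in both sets. Most of the variance between lineages thus lay in 2 of them, and the rest was smaller than the spread among related cells. Among all 9997 genes tested in CD8+ T-cells, 12.9% differed among lineages at an adjusted p under 0.05, beside which the CD8 chains are given without a test.

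Pairs of cells showed the same pattern by degree of relation. The mean absolute difference of Cd8a was 0.463 in ln(TPM + 1) between sisters (43 pairs), 0.450 between cousins (72 pairs) and 1.03 between unrelated cells (4541 pairs). Without lineages 83 and 92 the means were 0.458 between sisters, 0.451 between cousins and 0.579 between unrelated cells. For Cd8b1 the means were 0.473, 0.547 and 1.34 with all lineages. Without both lineages they were 0.500, 0.589 and 0.739. Sisters and cousins thus lay about equally close in Cd8a, and both kinds of relatives lay closer than unrelated cells in each chain. Pairs share cells and are no independent samples, so no test was made.

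Cd4 was almost absent, also in the lineages low in CD8. Only 2 of 97 CD8+ T-cells had any Cd4, at 0.69 TPM in CD8_92 and 1.81 TPM in CD8_101. CD8_101 had 384.04 TPM of Cd8a and 1088.46 TPM of Cd8b1, so its trace of Cd4 came with both CD8 chains. In all 4 cells of lineage 83 Cd4 was listed at 0. In L1210 cells Cd4 was above 0 TPM in 1 of 81, at 42.3 TPM in L1210_86. Cd4 passed the limit of expression in too few cells of either type to be tested.

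Zbtb7b, the Thpok gene, was at 0 TPM in 91 of 97 CD8+ T-cells and lay between 0.28 and 22.97 TPM in the other 6, each of a different lineage. The highest value, 22.97 TPM, was in CD8_86 of lineage 83, a cell with 0 TPM of Cd8a, Cd8b1 and Cd4. Its relatives CD8_83, CD8_84 and CD8_85 were at 0 TPM, and so were the 3 cells of lineage 92. All 6 cells with Zbtb7b also had Runx3 above 0 TPM, as did 93 of all 97 CD8+ T-cells.

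Runx3 was kept in the lineage lacking CD8. CD8_83 to CD8_86 had 34.01, 39.05, 67.86 and 26.80 TPM of Runx3, against a median of 45.7 TPM and quartiles of 19.6 and 81.8 TPM over all 97 CD8+ T-cells. The cells of lineage 92 had 40.07, 10.37 and 1.00 TPM. Both lineages lay inside the range of the other lineages. Over lineage means the rho of Runx3 was 0.326 with Cd8a and -0.21 with Cd8b1, and without lineages 83 and 92 it was 0.323 and -0.28 (34 and 32 lineages, descriptions).

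Other T-cell genes were expressed in lineage 83. All 9 of 9 T-cell markers were above 0 TPM in at least 1 of its cells and their sum was 1667 to 2385 TPM per cell, which ranked the lineage 30 of 34 from the highest, within the 612 to 4787 TPM of the cells of other lineages (median 2830). Cd3e was 408 to 557 TPM (rank 22 of 34) and Lat, an adaptor of T-cell receptor signalling, 383 to 609 TPM (rank 19) in its 4 cells. Cd3d ranked 11 and Cd3g 17, whereas Cd2, Cd247, Cd5, Thy1 and Zap70 ranked from 29 to 32. The 16 coreceptor regulators of the list introduced below ranked 33 of 34 by their sum. Lck, the kinase that the coreceptors carry, was 162 to 901 TPM, and the lineage ranked 29 of 34 from the highest. Zap70, a kinase of the receptor complex, was at 0 TPM in 1 of the 4 cells and at most 215 TPM. Cd5, a regulator of receptor signalling, was at 0 in 2 of them.

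Most markers of other cell types were listed at 0 TPM in lineage 83, with Klre1, Zbtb7b and Cd79b above 10 TPM in single cells. Of the gamma delta and innate-like T-cell genes, 7 were found among the measured genes and 0 of them were above 0 TPM, among them Sox13 and Zbtb16, but the other 4 on that list, the receptor constant genes Trdc, Tcrg-C1, Tcrg-C2 and Tcrg-C4, were not found under these names. Of 6 NK cell genes only Klre1 was detected, in 2 of the 4 cells and up to 81.03 TPM. Klre1 was found in 16 of all 97 CD8+ T-cells. Of 8 B-lineage genes only Cd79b was detected, at 15.1 TPM in 1 cell, and of 8 dendritic and myeloid genes only Xcr1, at 0.58 TPM in 1 cell. Over all 97 CD8+ T-cells Cd79b was found in 47 and Xcr1 in 34. Of 7 helper and regulatory T-cell genes Zbtb7b and Cxcr5 (7.39 TPM) were each detected in 1 cell, and Cd4, Cd40lg, Foxp3, Il4 and Il21 were at 0. Zbtb7b was found in 6 and Cxcr5 in 29 of all 97 CD8+ T-cells.

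Lineage 92 carried T-cell genes in another balance. Its T-cell markers summed to 1636 to 2172 TPM per cell, with Zap70 the highest and Lat the lowest of the 34 lineages by their means. Lat was 151 to 207 TPM in lineage 92, against a median of 529 TPM over all CD8+ T-cells. Gata3, a factor of early and helper T-cell development, was also highest in this lineage, at 22.07 to 145.13 TPM against a median of 4.47 TPM. Klre1 was found in all 3 cells, from 3.04 to 64.14 TPM, and was the only NK cell gene of 6 above 0. Of the other lists, 0 of 7 gamma delta and innate-like genes were detected, Cd79b alone of 8 B-lineage genes (3.76 TPM in 1 cell), Csf1r and Itgam of 8 dendritic and myeloid genes (3.31 and 0.45 TPM at most), and Cd4 and Cxcr5 of 7 helper and regulatory genes (0.69 and 41.3 TPM at most). These genes come from lists fixed for the analysis, and which of them ranked highest or lowest is a description of 3 cells.

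**Figure D3:**
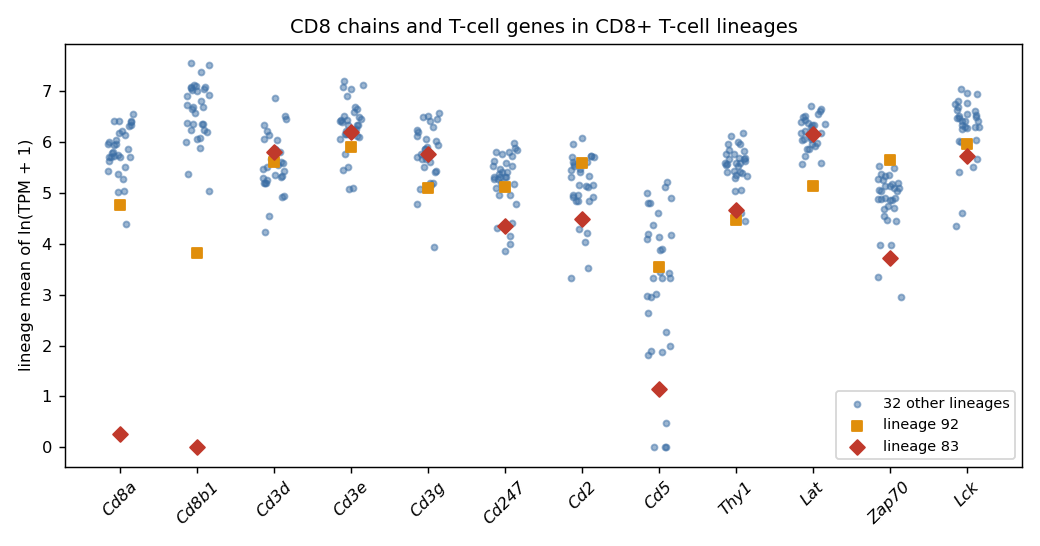
Lineage means of ln(TPM + 1) for the CD8 chains, 9 T-cell markers and Lck in the 34 lineages of CD8+ T-cells, with lineage 83 as red diamonds, lineage 92 as orange squares and the 32 other lineages as blue points. Lineage 83 falls outside the other lineages in Cd8a and Cd8b1 but within them in Cd3e and Lat, and lineage 92 has the lowest Lat and the highest Zap70.

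Between the cell types, Cd8b1 and Runx3 were higher and Zbtb7b lower in CD8+ T-cells. The comparison used the lineage means of ln(TPM + 1) of 34 and 26 lineages, and of 11373 genes tested 63.6% differed at an adjusted p under 0.05, 13.5% as higher and 50.1% as lower in CD8+ T-cells, with a median difference of -0.41. Runx3 and Zbtb7b are read beside these shares and given with no test, because both genes were selected on measured values of these data. Cd8b1 averaged 6.33 ± 1.34 over CD8+ T-cell lineages and 0.713 ± 0.870 over L1210 lineages (SD, n = 34 and 26 lineages), a difference of 5.62 ± 0.288 (SE). Cd8a averaged 5.64 ± 1.07 and 0.137 ± 0.235, a difference of 5.50. Both are given with no test, because the T-cells were purified as CD8 cells and the genes were chosen on their levels. The ranges overlapped in both genes only through lineage 83.

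The transcription factors differed by less. Runx3 averaged 3.43 ± 0.836 in CD8+ T-cell lineages and 2.28 ± 0.590 in L1210 lineages, a difference of 1.15 ± 0.200 (SE). The lineage means overlapped, running from 1.56 to 5.02 in CD8+ T-cells, and for the L1210 line from 0.606 to 3.44. Zbtb7b averaged 0.0492 ± 0.157 and 1.13 ± 0.580, a difference of -1.08 ± 0.110 (SE). It passed the expression filter only through L1210 cells. On the ln(TPM + 1) scale differences of genes of low TPM, such as Zbtb7b, are understated. With pseudocounts of 0.1 and 10 TPM the difference was -2.38 and -0.26 for Zbtb7b, 1.34 and 0.773 for Runx3, 7.48 and 3.40 for Cd8a, and 7.19 and 3.90 for Cd8b1. Leaving out lineages 83 and 92 gave differences of 5.89 for Cd8b1, 1.18 for Runx3 and -1.10 for Zbtb7b.

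**Figure D4:**
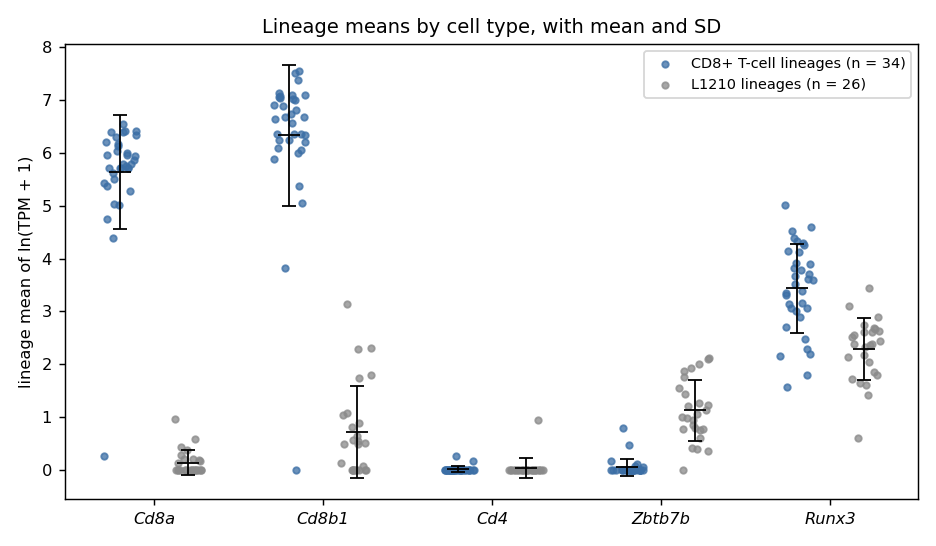
Lineage means of ln(TPM + 1) for the 5 genes in 34 CD8+ T-cell lineages (blue) and 26 L1210 lineages (grey), with the mean and SD over lineages in black. Cd8a and Cd8b1 separate the cell types except for lineage 83 near 0, Cd4 is near 0 in both, and Zbtb7b is higher and Runx3 lower in L1210 lineages.

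Most L1210 cells carried Zbtb7b and nearly all carried Runx3, and some had traces of Cd8b1. Zbtb7b was above 0 TPM in 53 of 81 cells from 25 of the 26 lineages, with a median of 2.21 and a maximum of 22.76 TPM, and 51 of the 53 also had Runx3. Runx3 was above 0 TPM in 73 of 81 cells, with a median of 11.1 and a maximum of 58.76 TPM. Over the 81 cells the levels of Zbtb7b and Runx3 had r = 0.185 and a rho of 0.103. Cd8b1 was above 0 TPM in 23 cells from 17 lineages, up to 31.75 TPM, and in 15 of them it exceeded the 7.38 TPM of CD8_45. Cd8a was above 0 TPM in only 10 cells, at most 9.74 TPM, and 5 cells had both chains. The T-cell gene Cd3e was at 0 TPM in every one of these cells.

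In L1210 cells neither Zbtb7b nor Runx3 differed among lineages at the threshold. Runx3 levels in the lineages low in CD8 were part of the selection, so its spread among CD8+ T-cell lineages is given with no test. In CD8+ T-cells, Runx3 varied mostly from cell to cell, with 12.5% of its variance between lineages. The between-lineage SD was 0.437 and the within-lineage SD 1.16 (27 lineages). The mean absolute difference of Runx3 was 1.17 between sisters, 1.17 between cousins and 1.30 between unrelated cells. Lineage 59 had the highest mean, with 93.88, 125.32, 223.79 and 190.43 TPM in its cells, and the lowest mean was in lineage 82, of a single cell with 3.78 TPM. Runx3 was at 0 TPM in 4 cells, which had 2639 to 3967 genes above 0 TPM, against a median of 6903 in the cells with Runx3. Zbtb7b was above the limit in too few CD8+ T-cells for the test.

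In L1210 cells, 13.4% of 10536 genes differed among the 24 lineages of at least 2 cells, and 0 of the 3 members tested did. The adjusted p was 0.0699 for Cd8b1, 0.351 for Runx3 and 0.652 for Zbtb7b (limma moderated F-test). The estimated share of variance between lineages was 21.7% for Cd8b1, 10.7% for Runx3 and 0% for Zbtb7b. With a pseudocount of 10 TPM in place of 1 the adjusted p of Cd8b1 was 0.0315 (limma), so that its call changed with the pseudocount.

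Time since division was recorded as 0.5 to 9.48 h for 94 CD8+ T-cells and 0.354 to 12.8 h for the 81 L1210 cells. None of the members tested changed with it at the threshold (Cd8a, Cd8b1 and Runx3 in CD8+ T-cells, Cd8b1, Runx3 and Zbtb7b in L1210 cells), where 0.09% of all genes did in CD8+ T-cells (9 genes, 0.04% rising and 0.05% falling) and 0% in L1210 cells (0 genes by limma, and 588 of 10536 at an unadjusted p under 0.05). Per hour, ln(TPM + 1) of Cd8b1 changed by -0.056 ± 0.0943 and of Runx3 by -0.039 ± 0.0614 in CD8+ T-cells (SE, 31 lineages), with adjusted p of 0.841 and 0.824 (limma). Cd8a had a slope of -0.0033 ± 0.0779 (adjusted p = 0.988, limma). Without lineages 83 and 92 the slopes were 0.0353 for Cd8a and 0.0116 for Cd8b1, also not past the threshold. The slopes in L1210 cells were 0.046 ± 0.0412 for Cd8b1, 0.0096 ± 0.0346 for Runx3 and -0.0099 ± 0.0319 for Zbtb7b, with adjusted p of 0.865, 0.962 and 0.957 (limma, 26 lineages). The difference of slopes between the cell types was tested for Cd8a, Cd8b1, Runx3 and Zbtb7b and had adjusted p from 0.762 to 1.00.

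Of 30 genes fixed as coreceptor regulators or as coreceptor signalling and ligands, 27 were tested between the cell types, and 16 were higher and 7 lower in CD8+ T-cells, beside the 13.5 and 50.1% of all genes. The median difference was 1.04 in ln(TPM + 1), against -0.41 over all genes. The 30 genes were chosen with earlier results of these data known, so counts and medians of this list, here and below, are descriptions. Of the 11 signalling and ligand genes tested 9 were higher, led by the adaptor Lat (6.01 ± 0.125), Lck (5.81 ± 0.172, adjusted p = 1.69e-42, limma) and Zap70 (4.75 ± 0.149). Lat and Zap70 are given with no p, because they passed the expression filter only through CD8+ T-cells. Only Cd74, the invariant chain of class II MHC, was lower, by no more than the median gene (-0.407 beside -0.41). Cd74 passed the expression filter only through L1210 cells. Csk, which restrains Lck, did not pass the threshold. Of the 16 regulators 7 were higher and 6 lower. Runx1 and Tcf12 had the lowest p of those lower in CD8+ T-cells (-2.65 ± 0.163, adjusted p = 9.52e-24, and -2.01 ± 0.211, adjusted p = 4.13e-13), followed by Myb (-1.79 ± 0.226, adjusted p = 2.68e-10). Runx1, a relative of Runx3 that silences Cd4 in immature thymocytes, thus differed in the opposite direction to Runx3.

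Among lineages of CD8+ T-cells 6 of 26 listed genes differed, beside 12.9% of all genes. The lowest p were those of Tcf7, a factor of naive and memory T-cells (share of variance between lineages 0.385, adjusted p = 0.00260), Lag3, an inhibitory receptor related to CD4 (0.322, adjusted p = 0.00770), and Bcl11b, a T-cell commitment factor (0.414, adjusted p = 0.0103). In L1210 cells 3 of 21 did, beside 13.4% of all genes, namely Myb (0.357, adjusted p = 0.0154), B2m (0.275, adjusted p = 0.0282) and H2-D1 (0.270, adjusted p = 0.0378), the last encoding class I MHC with B2m. With time since division 0 of 26 and 0 of 21 passed (limma). In CD8+ T-cells Chd4, Cbfb and Fyn had the lowest p, with slopes of -0.16, -0.19 and -0.19 per hour (unadjusted p = 0.00893, 0.00907 and 0.0120, adjusted p = 0.245, 0.246 and 0.265). With positive slopes the lowest p were those of Gata3, Lck and Runx1, at 0.12, 0.046 and 0.034 per hour (adjusted p = 0.564, 0.655 and 0.781). In L1210 cells the slopes of lowest p were negative in Myb, Fyn and Tcf7 (-0.15, -0.061 and -0.051 per hour) and positive in H2-K1, Cd74 and Patz1 (0.046, 0.054 and 0.058 per hour), with an adjusted p of 0.824 for Myb and 0.853 for each of the others.

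The genes most alike in pattern were found by Spearman's rho over the means of the 34 lineages, among 9994 genes. For Cd8a they were Lgals9 (0.678), Rgcc (0.669), Cd8b1 (0.657), Il2rg (0.651) and Arl4c (0.648), so that Cd8b1 ranked 3. For Cd8b1 they were H2afv (0.726), Cd8a (0.657), Itm2b (0.655), Ccdc164 (0.635) and Ostf1 (0.631). For Runx3 they were Traf4 (0.806), Plekhf2 (0.732), Cacul1 (0.678), Gclm (0.663) and Pdcd6ip (0.655), and neither CD8 chain was among them. Lineage means share libraries across genes, and of 9994 genes some are alike by the number compared.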

How the data were processed

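The authors quantified genes of the UCSC annotation (mm10) with RSEM 1.2.3, and the deposited values are TPM on a linear scale for 23420 genes in 194 libraries, each summing to 1000000. TPM keep no depth, so precision is described by the number of genes above 0 TPM. Of the gene names, 25 read as dates, none of them genes named here. Lineages were built from sister and cousin labels that named each other.

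Doublets and libraries with fewer than 1000 genes above 0 TPM were left out. Analyses used ln(TPM + 1), and a gene was tested where over 10% of cells of one type were above 1. Lineage means were compared between cell types and against time since division, and cells were compared among lineages by a moderated F-test, with limma 3.58.1 (R 4.3.3, intensity trend, Benjamini-Hochberg adjustment over all genes). The limma fits were checked on simulated data with 200 changed genes. Variance shares are components of variance. Python 3.11.15 with numpy 2.4.6, scipy 1.17.1, pandas 2.3.3 and matplotlib 3.10.9 was used. Coordinates came from GENCODE (GRCm38) and start windows from RefSeq.

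The 5 genes, the 30 pathway genes and the markers were chosen with earlier results of these data known. The genes named are the 5 members, the listed genes of lowest p (3 in each direction, or 3 for the F-test), markers in lineages 83 and 92, and for each member expressed in CD8+ T-cells the 5 genes most alike. Alternatives were pseudocounts of 0.1 and 10 TPM, other gene filters, a minimum of 4000 genes and detected genes as a covariate. Further ones were TPM rescaled without Rn45s, single cells with lineage as a random block, and leaving out L1210_15. Leaving out lineages 83 and 92 was added after seeing the data.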

Additional observations from a re-analysis of the deposited data

Results flagged for a closer look

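In lineages of 4 cells with at least 3 cells above 0 TPM, a limit set after the values were seen because 3 cells at 0 pass the check by construction, 67 combinations of a member and a lineage were checked for a cell far from its relatives by Dixon's ratio, and 5 passed the critical value. Chance flags about 1 in 20 such groups. Cd8b1 was 7.38 TPM in CD8_45, and 550.3 to 787.13 TPM in its 3 relatives. Cd8a was 595.5 TPM in CD8_97, which had 4671 genes above 0 TPM, and 243.4, 250.55 and 266.44 TPM in its relatives. Runx3 was 0 TPM in CD8_55, which had 3577 genes above 0 TPM, and 54.86 to 109.64 TPM in its relatives, which had 6166 to 6521 genes. In L1210 cells, Runx3 was 5.73 TPM in L1210_22 and 11.12 to 12.24 TPM in its relatives, and Zbtb7b was 0 TPM in L1210_5 and 2.97 to 4.26 TPM in its relatives.

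The libraries left out of the comparisons also held CD8 transcripts. The 4 doublets of CD8+ T-cells had 309 to 762.68 TPM of Cd8a and 781 to 2237 TPM of Cd8b1, with Cd4 and Zbtb7b at 0 in each. Of the 5 CD8+ T-cell libraries with 12 to 714 genes above 0 TPM, 3 had Cd8a above 0, up to 18828.1 TPM, and Cd8b1 was 0 in each of the 5. In the left-out L1210 libraries Cd8a was at most 1.57 TPM.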

How the results depend on the processing

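Of 140 values recomputed for single members, 131 counted as the same, 6 changed sign, 1 passed the threshold (Cd8b1 among L1210 lineages) and 2 shares of variance moved. The same means direction and side of the threshold, or for values with no test only direction or the size of a share. Part of the 131 could not change in size. Other gene filters leave the effect of a gene as it was, and shares of variance were computed without the covariate. The counts of genes are apart from these. The number of genes differing among L1210 lineages, 1417, was 2186 with all genes above 0 TPM, 674 with cells of at least 4000 genes and 510 with detected genes as a covariate. The number changing with time in CD8+ T-cells, 9, was 5 with a pseudocount of 0.1, 3 with all genes, 25 with at least 4000 genes, 17 with the covariate and 23 with single cells and lineage as a random block. That number in L1210 cells, 0, was 1 with the covariate. The coupling of the CD8 chains, r = 0.908, was 0.657 as Spearman's rho and 0.593 without the 2 lineages farthest from the median Cd8a. The slope of Cd8a with time, -0.0033, was 0.00295 with a pseudocount of 10, 0.0185 with at least 4000 genes, 0.00489 with the covariate and 0.0353 without lineages 83 and 92, and that of Cd8b1 was then 0.0116. The slope of Runx3 in L1210 cells, 0.0096, was -0.0083 with a pseudocount of 0.1. None of these slopes passed the threshold, and the causes were not tested. The share of variance between lineages, 0.886 for Cd8a and 0.837 for Cd8b1, was 0.189 and 0.223 without lineages 83 and 92. No paired analysis was possible because the numbers in the sample names mark single cells, and each lineage holds cells of 1 type. The depth of the libraries is unknown from TPM, which limits what a value of 0 means. The paper gives a mean read depth and quality metrics for each library, which were not used here.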
